A study of Mus musculus with 4 samples.

Results

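The MHC class I presentation genes are a group of 10 genes whose products put peptides on the cell surface for cytotoxic T cells: H2-K1, H2-D1, B2m, Tap1, Tap2, Tapbp, Psmb8, Psmb9, Nlrc5 and Erap1. They are 10 of the 23462 gene symbols named on the array, and 15 probes carry a RefSeq accession of 1 of them. They were measured in B16-F10 cells, a mouse melanoma line grown in medium with fetal bovine serum. Control cells were cultured for 24 h without, and Cdh1-treated cells with, recombinant Cdh1 at 100 ng/mL. Cdh1 is the mouse gene symbol of the adhesion protein E-cadherin, and the labels give no other name for it. Total RNA of 2 control and 2 Cdh1-treated samples was hybridised to 4 one-colour Agilent arrays, as 2 independent sets, each pairing a control sample with a treated one. All samples came from 1 cell line, with no other allele or agent named.

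A class I molecule is a heavy chain (H2-K1 or H2-D1 here) bound to beta-2-microglobulin (B2m) and a short peptide. Peptides are cut by the proteasome, which can carry the inducible subunits Psmb8 and Psmb9. They are pumped into the endoplasmic reticulum by the Tap1/Tap2 transporter, trimmed by Erap1 and loaded with the help of tapasin (Tapbp). Nlrc5 is a transactivator of class I genes, and interferons are known inducers of the pathway. Low class I levels and their increase by interferon are well known for B16 melanoma lines.

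Levels are on a log2 scale on which 0 is the 75th percentile of an array's processed intensity. Of 59305 non-control spots an array, the share well above background ranged from 59.29% to 61.33%, and 0 were saturated. A gene is represented by its brightest probe unless another probe is named, and levels of different probes are not comparable. Of the 10 genes, 9 had their brightest probe well above background on all 4 arrays and were tested. Psmb8 was the other. Its single probe (NM_010724) was not well above background on any array, so no comparison could be made for it.

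The first comparison asked whether recombinant Cdh1 altered these transcripts. None of the 9 genes differed between Cdh1-treated and control cells in limma, and all 9 adjusted p-values were 1. Across the array 0 of 14455 genes were called, a background of 0%, while 561 of 32571 probes had an unadjusted p under 0.05. None of the 9 genes reached that unadjusted level either. Their differences, Cdh1 minus control, ran from -0.18 for Erap1 to 0.25 for Nlrc5 on the log2 scale. The median was 0.00068, beside -0.01 over all genes tested. Within set 1 the median over the 9 genes was 0.04, with 5 genes higher and 4 lower in the Cdh1 sample. Within set 2 it was -0.05, with 3 higher and 6 lower. Over the genes tested between sets, 57.5% were lower in the Cdh1 sample within set 1 and 53.96% within set 2. The sign was the same in both sets for 5 of the 9 class I presentation genes.

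How large a Cdh1 effect could have gone unseen depended on how the sets entered the fit. With groups alone the SE of the 9 differences was between 0.32 and 1.18, and the difference between the sets enters that SE. With the set as a replicate block it was between 0.06 and 0.13, and again 0 genes were called (limma adjusted p from 0.781 to 0.999). Over the array, 2335 of 32571 probes had an unadjusted limma p under 0.05 in this block fit, against 561 with groups alone. None of them was called after adjustment. The 95% intervals of that fit give a range for the difference of each single gene, not adjusted for the number of genes. With so few arrays, their width leans on the variance that limma shares across probes, more than on a gene's own spread. They therefore set no firm limit on an effect that went unseen. For Tap1, the transporter's first subunit, the interval was -0.20 to 0.20, and for the H2-K1 heavy chain it was -0.25 to 0.13. It was -0.06 to 0.34 for Tap2 and -0.45 to 0.09 for Erap1. The widest interval, -0.15 to 0.66, was that of Nlrc5. Its Cdh1 sample exceeded the control by 0.45 in set 1 and by 0.06 in set 2, and whether the sets differ in this could not be tested with 1 array of each kind.

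**Figure D1:**
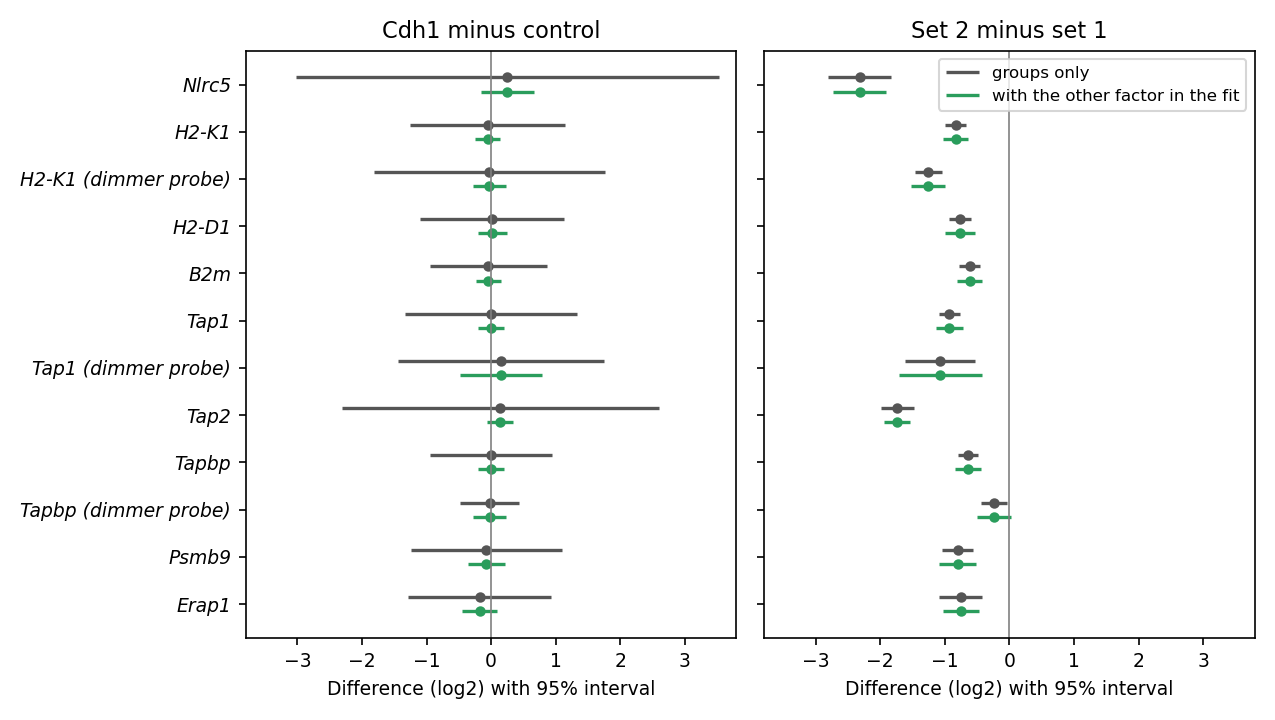
Difference of each tested probe (log2, horizontal axis) with its 95% interval, for Cdh1 minus control (left) and set 2 minus set 1 (right), from limma with groups only (grey) and with the other factor in the fit (green). With groups only, all Cdh1 intervals include 0, and all set intervals lie below 0.

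The same genes differed between the sets. All 9 were lower in set 2 than in set 1 at a limma adjusted p under 0.05, with adjusted p-values from 0.00748 to 0.0344. A set is 1 control and 1 Cdh1 array. The p-values therefore weigh the gap between the sets against the gap within a set, and do not measure variation among sets. Over the array, 11.5% of the 14649 genes tested were called lower in this comparison. The differences of the 9 genes ran from -2.32 for Nlrc5 to -0.61 for B2m, with a median of -0.80 beside -0.03 over all genes (2 arrays a set). In all 9, both arrays of set 2 lay below both arrays of set 1, which 41.3% of genes did. That count was 9 under each scaling tried, while the share over all genes ran from 34.6% to 41.3%. All 9 were also lower by at least 1.5-fold in the control pair and in the Cdh1 pair alike, as 5.63% of genes were. This second count depended on the scaling, and so did the share over all genes. The count was 8 with quantile normalization (without B2m), beside 5.54% of genes. It was 7 with median centring (5.47% of genes) or the deposited table (5.06%), without B2m and Tapbp. With normexp it was 5 (without B2m, Tapbp, Psmb9 and Erap1), beside 2.6% of genes. In the control pair alone the median was -0.70, and in the Cdh1 pair alone -0.86. The 9 genes were chosen with earlier results of these data known, so these counts are a description of the group.

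These calls rested on all 4 arrays. Without control set 1, Cdh1 set 1 or Cdh1 set 2, 0 of the 9 genes were called, and without control set 2 only Tap2 was (limma adjusted p 0.0485). The medians stayed between -0.89 and -0.74 in those fits. With no filter on dim probes limma called 0 of the 9 genes and 0 probes of the array, 9530 of which had an unadjusted p under 0.05. The design text calls the sets independent, without saying whether they differed in passage, day or RNA preparation. Their arrays also took separate positions on 1 slide, and these cannot be told apart. In bulk RNA, less transcript per cell and fewer cells with the transcript cannot be told apart either.

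**Figure D2:**
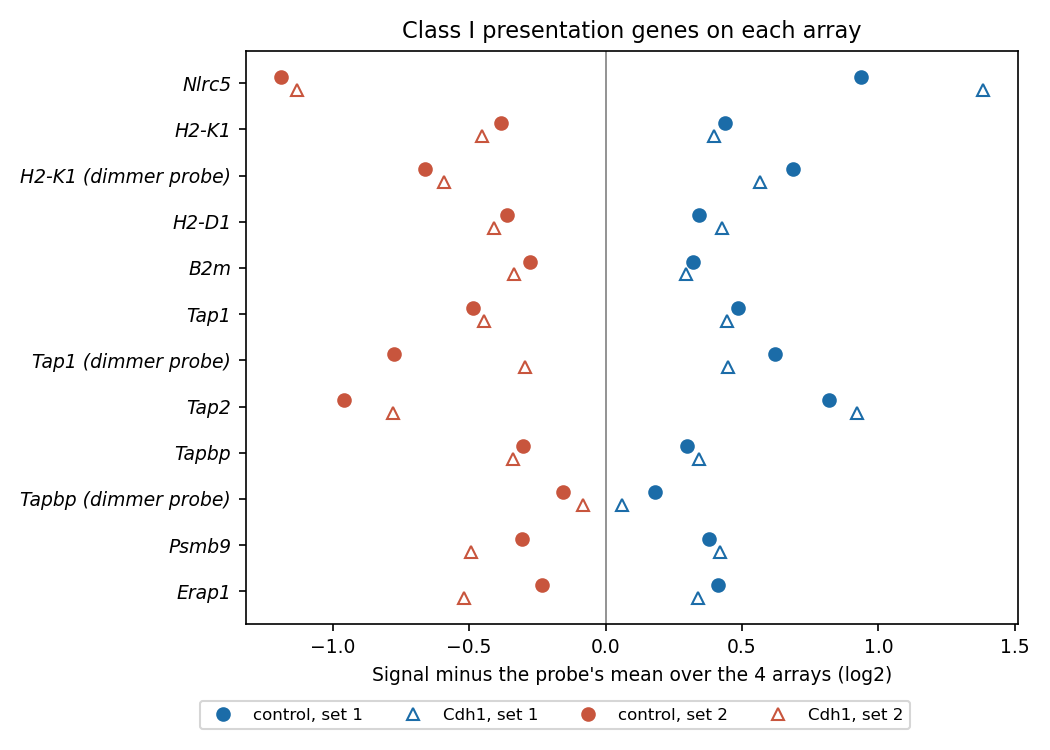
Signal of each tested probe on the 4 arrays, as the log2 difference from the probe's mean over the arrays (horizontal axis). Blue marks set 1 and red set 2, filled circles control and open triangles Cdh1; every set 1 point lies to the right of 0 and every set 2 point to the left.

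Nlrc5, the transactivator, was among the genes with the largest differences between the sets. Its brightest probe (NM_001033207) read -1.69 in the control and -1.24 in the Cdh1 sample of set 1, against -3.82 and -3.76 in those of set 2. Both set 1 arrays were far above both set 2 arrays, while control and Cdh1 values interleaved. The difference was -2.32 with an SE of 0.17, or 4.99-fold (limma adjusted p 0.0114). With normexp and quantile normalization it was -1.46, below the -1.62 of Tap2, while it was the largest of the 9 under the other scalings. A dimmer probe of Nlrc5 was well above background on 2 arrays, Cdh1 set 1 and control set 2, and was not tested. It read -5.64, -4.62, -5.38 and -6.45 in the same order and is not set against the brighter one.

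The heavy chains came next in the pathway. H2-K1, by its brightest probe (NM_001347346), read -0.06 in the control and -0.11 in the Cdh1 sample of set 1, against -0.88 and -0.95 in those of set 2. The arrays of each set lay close together and the sets did not overlap. The difference between sets was -0.83 (SE 0.06, limma adjusted p 0.0108), or 1.78-fold. The dimmer H2-K1 probe (NM_001001892) gave -0.08, -0.20, -1.43 and -1.36 in that order, a difference of -1.25 (SE 0.07, adjusted p 0.00833). Both probes were lower in set 2, by unequal amounts.

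H2-D1 (NM_010380) showed the same order of arrays. It read 1.71 in the control and 1.79 in the Cdh1 sample of set 1, against 1.01 and 0.96 in those of set 2. The sets were again apart, with a difference of -0.77 (SE 0.06, limma adjusted p 0.0127), or 1.70-fold. Heavy chain genes of the mouse MHC are near copies of each other. The files hold no probe sequences, so how much of a signal comes from a related heavy chain was not tested.

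B2m is the light chain shared by all class I molecules. Its probe (NM_009735) read 5.55 in the control and 5.52 in the Cdh1 sample of set 1, against 4.95 and 4.89 in those of set 2. The gap between sets was wide relative to the gap within each. The difference was -0.61 (SE 0.06, limma adjusted p 0.0149), or 1.53-fold. At -0.60 in the control pair it was just inside the 1.5-fold limit.

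Because these 3 genes moved together, their upstream sequences are shown, with matches to a few fixed patterns marked. RefSeq windows of the assembly GRCm38.p6, running from 250 bases before to 50 after an annotated start, were given for 8 of the 10 genes, with 2 windows for H2-K1. They were searched on both strands for GAAANNGAA (an interferon-regulatory-factor type motif), TTCNNNGAA (STAT type), GGGNNTTTC (NF-kappaB type) and CCAAT (the box bound by NF-Y). The stretches printed are parts of these windows that end at an annotated start, 5′ to 3′ on the strand of the gene. Capitals mark the matches, which on the opposite strand appear in reverse complement.
H2-K1, chr17:34000334-34000483 (- strand): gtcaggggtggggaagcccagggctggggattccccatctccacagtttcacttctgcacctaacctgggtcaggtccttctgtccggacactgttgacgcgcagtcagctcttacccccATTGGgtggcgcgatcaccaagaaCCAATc
H2-D1, chr17:35262944-35263093 (+ strand): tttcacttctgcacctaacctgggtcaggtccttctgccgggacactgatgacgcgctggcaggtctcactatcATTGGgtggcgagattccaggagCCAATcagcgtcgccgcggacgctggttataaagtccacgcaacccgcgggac
B2m, chr2:122147537-122147686 (+ strand): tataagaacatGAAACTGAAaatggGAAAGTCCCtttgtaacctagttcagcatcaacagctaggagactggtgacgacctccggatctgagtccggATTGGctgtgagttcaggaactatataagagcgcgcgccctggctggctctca

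The H2-K1 and H2-D1 windows each held a pair of CCAAT matches on opposite strands and shared an identical run of 47 bases. The B2m window held 1 CCAAT match, 1 GAAANNGAA match and 1 GGGNNTTTC match, with no overlap between them. Over all 32851 windows, 37.4% held CCAAT, 8.56% GAAANNGAA, 8.30% TTCNNNGAA and 4.36% GGGNNTTTC. Among the 8 genes, 6 held CCAAT (H2-K1, H2-D1, B2m, Tap1, Tapbp and Psmb9), 2 held GAAANNGAA (B2m and Erap1), 1 held TTCNNNGAA (Psmb8) and 1 held GGGNNTTTC (B2m). A match describes letters in the window and is not evidence of binding. The patterns are exact letters, so a variant of a site is not counted, and a window without a match may still hold one. Both heavy chain genes, for example, have ggggattcccc in their windows, which GGGNNTTTC does not match.

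The transporter subunits fell by different amounts. Tap1 (NM_013683) read -0.98 in the control and -1.02 in the Cdh1 sample of set 1, against -1.95 and -1.91 in those of set 2. The 2 arrays of a set were nearly equal. The difference was -0.93 (SE 0.06, limma adjusted p 0.00862), or 1.90-fold. A dimmer Tap1 probe gave -1.07 (SE 0.19, adjusted p 0.0419), with the set 2 arrays further apart, and this call was lost with treatment as a term (0.0788).

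Tap2 (NM_011530) had the larger fall of the transporter pair. It read 1.51 and 1.61 in the control and Cdh1 samples of set 1, but -0.27 and -0.09 in those of set 2. The difference of -1.74 (SE 0.09, limma adjusted p 0.00748) was 3.34-fold. Whether it differed from that of Tap1 was not tested. A further Tap2 probe was not well above background on any array.

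Psmb9 lies head to head with Tap1, and their windows share 275 bases. The stretch between the starts, 226 bases apart, is shown because both transcripts were lower in set 2 and read from it in opposite directions. Its CCAAT match is the one counted for both genes.
Tap1, chr17:34187331-34187555 (+ strand): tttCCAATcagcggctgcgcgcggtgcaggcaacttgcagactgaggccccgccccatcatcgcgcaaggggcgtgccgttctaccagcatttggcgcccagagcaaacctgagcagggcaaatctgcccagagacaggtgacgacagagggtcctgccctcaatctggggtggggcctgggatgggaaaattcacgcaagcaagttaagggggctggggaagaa

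Psmb9 (NM_013585), an inducible proteasome subunit, was dim but well above background throughout. It read -3.88 in the control and -3.84 in the Cdh1 sample of set 1, against -4.56 and -4.75 in those of set 2. The sets did not overlap, and the difference was -0.80 (SE 0.09, limma adjusted p 0.0183), or 1.74-fold. With normexp and quantile normalization it was -0.30, still called. The other inducible subunit measured, Psmb8, read -7.19, -8.15, -8.24 and -7.81 in the same order, not well above background on any array.

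Tapbp, the tapasin that bridges the transporter and the heavy chain, read 1.83 in the control and 1.87 in the Cdh1 sample of set 1, against 1.23 and 1.19 in those of set 2. The difference was -0.64 (SE 0.06, limma adjusted p 0.0137), or 1.56-fold. Its dimmer probe (NM_009318) also read lower in set 2 on both arrays, but the difference of -0.24 (SE 0.07, adjusted p 0.102) was not called. That probe was the exception among the 12 member probes tested, of which 11 were called lower. Over the array 8.64% of probes were called lower.

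Erap1, the peptide-trimming aminopeptidase of the endoplasmic reticulum, had the highest adjusted p of the 9 genes. Its probe (NM_030711) read -3.996 in the control and -4.07 in the Cdh1 sample of set 1, against -4.64 and -4.93 in those of set 2. The set 2 arrays lay lower and further apart than the set 1 arrays. The difference was -0.75 (SE 0.12, limma adjusted p 0.0344), or 1.69-fold. With treatment as a term the call was lost (adjusted p 0.0505), as it was with quantile normalization (0.0528). With normexp and quantile normalization the gene was called, at a difference of -0.31. Its window is shown because it held a pair of overlapping GAAANNGAA matches on the opposite strand, right at the annotated start, and the printed stretch runs to the end of the second.
Erap1, chr13:74639753-74639858 (+ strand): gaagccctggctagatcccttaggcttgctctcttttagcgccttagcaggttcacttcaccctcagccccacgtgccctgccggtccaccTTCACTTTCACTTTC

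**Figure D3:**
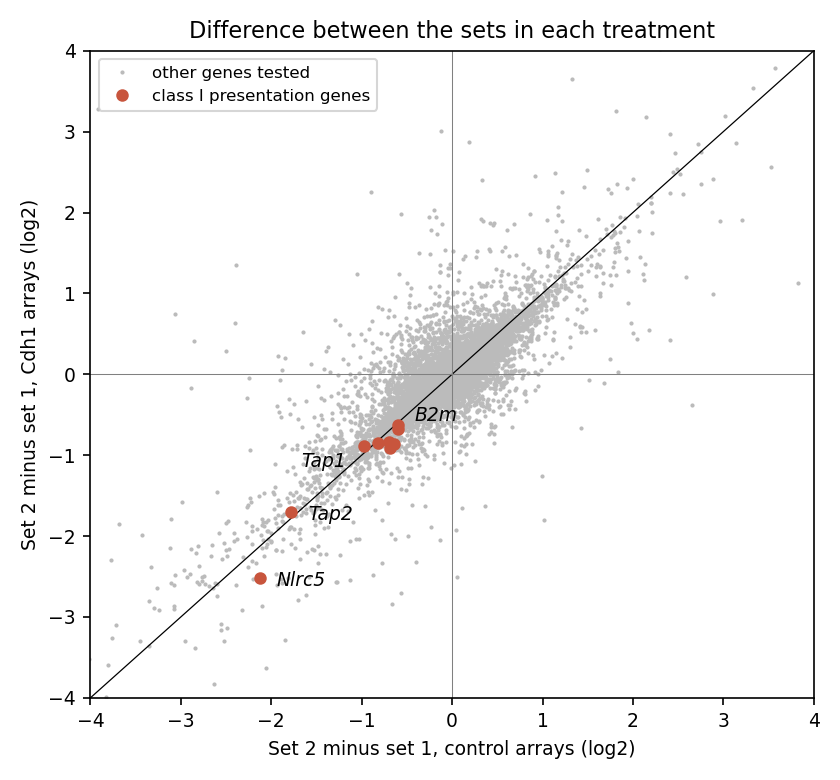
Set 2 minus set 1 (log2) in the control arrays (horizontal axis) against the same in the Cdh1 arrays (vertical axis), for the 9 class I presentation genes (red) and 14638 other genes (grey, 27 beyond the limit of 4 on an axis). The diagonal marks equal differences. All 9 lie in the lower left quadrant, from B2m at -0.60 and -0.63 to Nlrc5 at -2.13 and -2.52 (75th-percentile scaling).

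The rest of the pathway did not move as 1 block between the sets. For Cdh1 minus control, 0 genes of any of the 7 further lists were called, and all limma adjusted p-values were 1. For set 2 minus set 1 the lists are read against the background over all genes, of which 1678 of 14649 were called lower and 1105 higher. These calls too rest on all 4 arrays, since at most 409 probes of the array were called with any 1 array left out.

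Among other class I-type heavy chains, 15 of 18 genes were tested, 7 were called lower and 1 higher, and the median was -0.35. Cd1d1, which presents lipids, had the largest fall. It read -3.87 in the control and -3.90 in the Cdh1 sample of set 1, against -5.81 and -6.50 in those of set 2, and was well above background on 3 of the arrays. Its difference was -2.27 (SE 0.25, limma adjusted p 0.0195). H2-M3, which presents formylated peptides and was also well above background on 3 arrays, fell by 1.37 on the log2 scale (adjusted p 0.0395). H2-Q7, H2-Q2, H2-T23, H2-Q10 and H2-M2 were lower by smaller amounts, from -0.86 to -0.59. H2-Q4, with the highest readings of the list, was not called (0.10, SE 0.10, limma adjusted p 0.496). It read 5.16 and 5.07 in the control and Cdh1 samples of set 1, and 5.11 and 5.33 in those of set 2. Hfe, an iron-regulating relative of the class I chains, was higher (0.36, adjusted p 0.0398), a call lost with treatment as a term (0.0765).

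In peptide loading and quality control, 2 of 9 genes were called, both lower, with a median of -0.12. They were the chaperones Hspa5 (-0.60, limma adjusted p 0.0180) and calreticulin, Calr (-0.54, adjusted p 0.0162). In peptide supply, 1 of 11 tested genes was called, and it was higher: the cytosolic peptidase Thop1, at 0.38 (adjusted p 0.0383, and 0.0820 with treatment as a term). The median there was 0.02. Lap3, an aminopeptidase, stood at 0.22 and was not called (adjusted p 0.0667). Psmb10, the remaining inducible catalytic proteasome subunit, differed by 0.03 with an SE of 0.08. None of the 3 constitutive catalytic subunits was called, with Psmb5 at -0.14 and Psmb7 at -0.08.

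Regulators of class I transcription went both ways. Of 16 tested genes, 4 were called lower and 3 higher, with a median of -0.04, and 4 of these 7 calls held with treatment as a term. Irf9, the DNA-binding part of the type I interferon complex, read 0.75 in the control and 0.83 in the Cdh1 sample of set 1, against -0.74 and -0.65 in those of set 2. Its difference was -1.48 (SE 0.07, limma adjusted p 0.00667). Stat2, the Irf9-binding member of that complex, also fell (-0.64, adjusted p 0.0135), as did Stat3 (-0.56, adjusted p 0.0320).

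Rfxank, a subunit of the RFX complex that binds class I promoters, moved the other way. It read -0.68 in the control and -0.83 in the Cdh1 sample of set 1, against 0.31 and 0.14 in those of set 2. The rise was 0.98 (SE 0.10, limma adjusted p 0.0164). Irf1, an interferon-induced activator of class I genes, rose by 0.33 (adjusted p 0.0380), and the NF-Y subunit Nfya rose by 0.37 (adjusted p 0.0377). Both calls were lost with treatment as a term (0.0773 and 0.0818).

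None of the 10 interferon receptor and signalling genes was called (lowest limma adjusted p 0.0712), with a median of 0.04. The members with the largest differences were Socs1, a feedback inhibitor, at -0.30 and the receptor chain Ifngr2 at -0.23. Of the class II genes, 4 of 9 were tested and 2 were called lower. H2-Eb1 was well above background on both set 1 arrays and neither set 2 array, and was at least 1.55-fold higher in set 1 (adjusted p 0.00844). H2-DMb1, a chain of the class II peptide exchanger, differed by -0.53 (adjusted p 0.0164). Ciita, H2-Aa and H2-Ab1 were not well above background on any array.

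**Figure D4:**
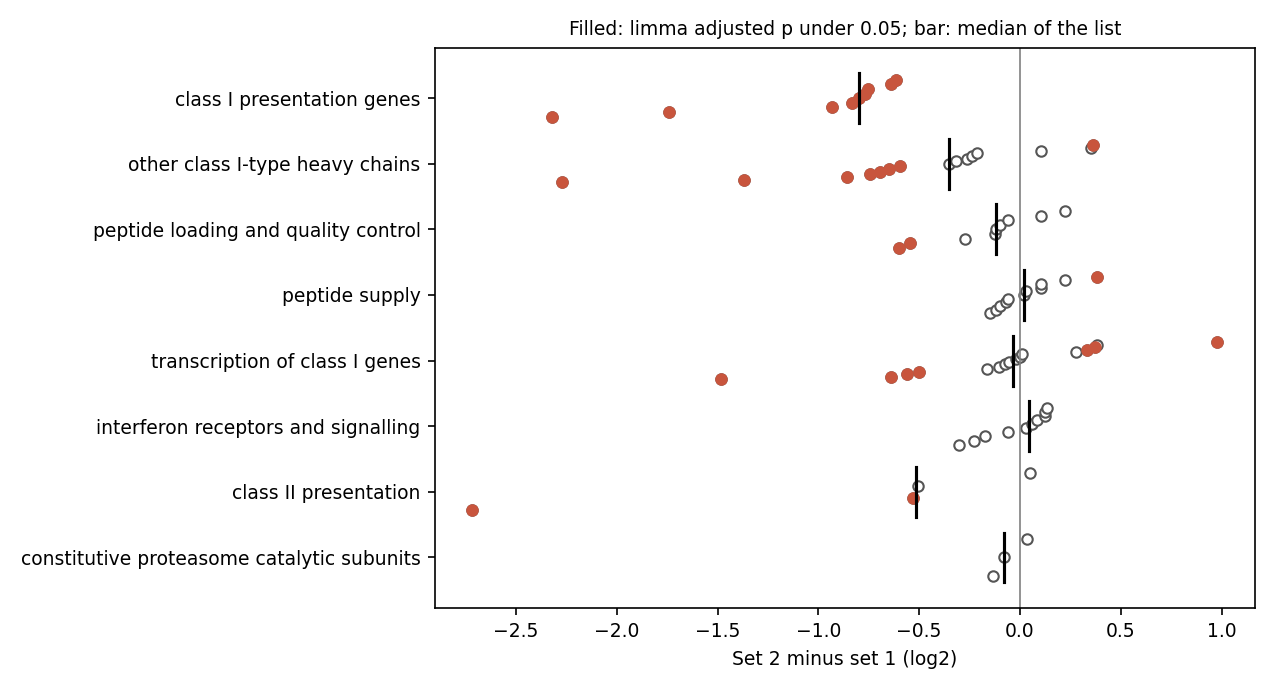
Set 2 minus set 1 (log2, horizontal axis) for each tested gene of the class I presentation group and 7 further lists (rows). Filled points are called by limma at an adjusted p under 0.05, bars are list medians, and the H2-Eb1 point of the class II row, the lowest there, is only a fitted value beside its bound. The class I presentation genes all lie left of -0.6, while the interferon receptor and signalling genes are all open and lie near 0.

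Cell markers were read for the same arrays. All 10 melanocyte markers were well above background on all 4 arrays, and 6 of them were called lower in set 2 and 0 higher (4 lower with treatment as a term, which lost Pmel and Mitf), with Tyr at -1.77 (limma adjusted p 0.00776) and Oca2 at -1.74 (adjusted p 0.00886). Their summed linear level, in units of the 75th percentile, was 1619 and 1585 in set 1 and 1359 and 1355 in set 2. Dct, Mlana, Pmel and Tyrp1, the brightest, weigh most in this sum, and of these only Pmel was called. Such sums add probes whose levels are not comparable, so they describe the bright probes of a list. Of 14 leukocyte markers, 5 were well above background on all arrays (Cd3e, Cd4, Itgam, Cd68 and Csf1r) and 7 on none, Ptprc among the latter. Itgam was the brightest, at 3.44 in the control and 3.435 in the Cdh1 sample of set 1, against 3.22 and 3.40 in those of set 2. It therefore weighs most in the summed level. None of the 6 tested was called. The sums over the leukocyte list were 14.45 and 14.12 in set 1 and 12.45 and 13.93 in set 2. Of 6 fibroblast markers, 3 were well above background and 2 were lower in set 2, Col1a1 (-1.22) and Pdgfra (-0.41, a call lost with treatment as a term, limma adjusted p 0.0758). The third, Col1a2, was by far the brightest and was not called (-0.32, limma adjusted p 0.0556). The sums over the fibroblast list, in which Col1a2 weighs most, were 3.53 and 3.31 in set 1 and 2.78 and 2.66 in set 2. No epithelial or endothelial marker was called. The part of these markers in the difference between the sets was not tested.

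The 9 genes were also set beside all others by the shape of their profile. The mean of their centred signals was 0.49 in the control and 0.55 in the Cdh1 sample of set 1, against -0.50 and -0.54 in those of set 2. Among 13988 other genes well above background on all 4 arrays, 56 were closer to that mean than Tap1, the closest of the 9, at a root-mean-square distance of 0.074. The median distance was 0.515. The 5 closest were Esx1, Gask1b, Ncald, Dusp1 and Hlf, at 0.020, 0.022, 0.023, 0.030 and 0.031. Nlrc5 was the farthest of the 9 genes (0.654) because its difference was larger, followed by Tap2 (0.357). With 4 arrays that fall into 2 sets, closeness says little more than that a gene was lower in set 2 by a similar amount.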

How the data were processed

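Processed Cy3 intensity values came from the deposited scanner files of 4 arrays, made with Agilent Feature Extraction 12.0.3.1 per the file headers, which subtracts background and does not normalize between arrays. A further table of intensity values deposited by the authors was equal to the scanner values times 1 factor per array (tolerance 1e-06, log2). Each array's 75th percentile of log2 intensity was subtracted, outlier and control spots were left out, and spots of a probe were averaged. Of 56605 probes, 33767 (59.65%) matched a symbol through RefSeq accessions (assembly GRCm38.p6). The headers name mm9 for the array design, so no probe coordinates are given.

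A probe was tested where both arrays of at least 1 compared group had it well above background. The test was limma 3.58.1 in R 4.3.3 (lmFit and eBayes, n = 2 per group, Benjamini-Hochberg over all probes, threshold 0.05). It was first run on simulated arrays with changes larger than those of the member genes and no pairing by set. That run does not show how smaller changes fare in paired arrays. Python 3.11.15 and pandas 2.3.3 read the files, and matplotlib 3.10.9 drew the plots. The set number pairs samples, as the design text names independent sets with and without Cdh1. Deviations of same-set arrays from their group means had a correlation of 0.745 across 31155 probes. Alternatives were other scalings (normexp with an offset of 50 and quantile, quantile, median centring, the authors' table), filters, prior, the last 24 of 384 rows left out, each array left out, the other factor as a term, and the mean over a gene's probes.

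The members, lists, marker lists and tests were chosen with earlier results of these data known. Named were all members, the 2 largest differences of a list in each comparison, the 5 genes of closest profile and the Cdh1 gene. Other called list genes, Psmb10, H2-Q4, class II genes at background and further marker genes were singled out after their values were seen. A gene of the transcription list is not reported by name here. P-values measure the spread between these samples only, and for the sets that is the spread between the control and Cdh1 arrays of a set.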

Additional observations from a re-analysis of the deposited data

How the results depend on the processing

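The count of 0 called genes between Cdh1 and control was the same under every alternative run, with a lowest adjusted p over all probes between 0.267 and 1. The median over the 9 genes lay between -0.48 and 0.38 with 1 array left out, fits in which the sets are unequal between the groups by construction. The gene ranges there were -0.48 to 0.37 (H2-K1), -0.40 to 0.44 (H2-D1), -0.36 to 0.27 (B2m), -0.49 to 0.49 (Tap1), -0.75 to 1.03 (Tap2), -0.34 to 0.34 (Tapbp), -0.53 to 0.38 (Psmb9), -1.004 to 1.51 (Nlrc5) and -0.61 to 0.25 (Erap1). Near 0, signs also turned with normexp (H2-D1 -0.0132, Tap1 -0.0535), quantile normalization (Tap1 -0.0241), median centring (H2-D1 -0.0246, Tap1 -0.0434, Tapbp -0.0419) and the mean over probes (Tapbp -0.0103).

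Between the sets, 5098 probes became 9019 (normexp), 11196 (trend and robust prior), 2165 with treatment as a term (the same model as the set as replicate block), 0 with no filter (lowest adjusted p 0.0743) and 0 to 409 with 1 array left out. The 9 called genes became 8 with treatment as a term or quantile normalization (Erap1 lost), 0 with no filter and 0 to 1 with 1 array left out, where the lone array is assumed to vary like the others. They were 9 under the remaining alternatives, and no direction turned in any. The 9 genes lower by 1.5-fold in both pairs became 5 with normexp and 7 or 8 with the other scalings, a check chosen after seeing the data. The share over all genes fell as well, from 5.63% to 2.6% with normexp. The cause of these shifts was not tested. No slide or scan block was possible with 1 slide. The 2 arrays per group limit every comparison, and signal near background left Psmb8 and the dimmer probes of Tap2 and Nlrc5 unmeasured.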

Other observations

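The largest Cdh1 differences in each further list of the pathway were not called either. In the class I-type heavy chains these were H2-M3 at -0.40 and Cd1d1 at -0.35, in the loading genes Tapbpl at -0.09 and Hspa5 at 0.07, and in peptide supply Lnpep at -0.12 and Psmb10 at -0.07. Among regulators Rfxank stood at -0.16, among interferon signalling genes the largest were Tyk2 at 0.12 and Ifnar1 at 0.08, and among class II genes Cd74 at -0.27 and H2-DMa at -0.21. The constitutive subunits Psmb7 and Psmb5 stood at -0.07 and -0.06. All of these had a limma adjusted p of 1.

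The cells' own Cdh1 transcript (NM_009864) read -4.56 in the control and -4.55 in the Cdh1 sample of set 1, against -4.38 and -4.45 in those of set 2. It was not called between treatments (-0.03, SE 0.12, limma adjusted p 1) or between sets (0.14, adjusted p 0.182).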
